A study of Mus musculus with 6 samples.

Results

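The type I interferon response genes are a list of 35 genes that interferon is known to induce or that carry its signal: antiviral effectors, sensors of foreign nucleic acid, the transcription factors of the STAT and IRF families, and chemokines that draw T cells. Its members are named genes rather than genes past a threshold, but it was drawn up with earlier results of these data known. The GTPases of the GBP and IRG families were left out of it. The deposited table lists 26167 genes by symbol, and 32 of the 35 were found there by exact symbol. All 32 had enough reads to be tested. Mx1 and Mx2 were not analysed here. Ddx58 was not found under that symbol, and the row named Rigi, the present symbol of the same gene, is described beside the list and is not counted in it.

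The tumors were grown from Hepa1-6 cells, a mouse hepatoma line, injected under the skin of female C57BL/6J mice 6 to 8 weeks old, so they did not grow in the liver and the host had a full immune system. Treated mice received sorafenib (Sora), an inhibitor of RAF kinases and of receptor tyrosine kinases such as VEGFR, at 10 mg/kg into the peritoneum, first on day 9 and again on days 11, 13, and 15 after the cells. What the control mice were injected with is not given in the sources used here. Bulk RNA was sequenced from 3 control tumors, numbered 1, 3, and 4 in the labels, and 3 Sora-treated tumors, numbered 2, 3, and 4. Nothing in the labels ties the tumors to separate cages or batches, and the p-values measure only the spread between these tumors.

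Type I interferons bind the receptor IFNAR, whose kinases JAK1 and TYK2 phosphorylate STAT proteins, STAT2 among them. STAT2 and IRF9 are parts of ISGF3, a complex that binds a DNA element called the interferon-stimulated response element (ISRE) and turns on the antiviral genes. In tumors the same genes are expressed by cancer cells and by infiltrating leukocytes, and interferon-gamma from T and NK cells induces many of them too.

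The ISRE is built from repeats of GAAA, and RefSeq's promoter windows for GRCm38.p6, from 250 bases before each gene's start to 50 after it, were searched for GAAANNGAAA on both strands (TTTCNNTTTC on the other). Windows were given for 25 of the 32 genes, and 11 of them, 44.0%, held a match before the start, against 3.46% of the 27025 genes with a window. The stretches below are shown because they carry the element that the list is known for, in genes whose tumor groups separated (Ifit1, Oas1a, Oas3, Stat2, and Cxcl10) and in genes whose groups overlapped (Ifit3, Ifit3b, Isg15, and Bst2). Capitals mark the match, and each stretch ends before the start of the gene.
Ifit1, chr19:34640765-34640833, plus strand: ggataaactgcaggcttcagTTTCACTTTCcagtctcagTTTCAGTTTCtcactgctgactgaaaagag
Ifit3, chr19:34583353-34583436, plus strand: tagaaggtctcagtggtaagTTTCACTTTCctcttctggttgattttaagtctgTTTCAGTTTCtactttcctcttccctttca
Ifit3b, chr19:34607749-34607832, plus strand: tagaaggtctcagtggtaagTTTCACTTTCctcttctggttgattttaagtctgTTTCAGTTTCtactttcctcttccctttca
Isg15, chr4:156200855-156200916, minus strand: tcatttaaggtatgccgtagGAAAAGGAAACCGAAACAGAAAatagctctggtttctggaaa
Oas1a, chr5:120907526-120907565, minus strand: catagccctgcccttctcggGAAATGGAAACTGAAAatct
Oas3, chr5:120777705-120777754, minus strand: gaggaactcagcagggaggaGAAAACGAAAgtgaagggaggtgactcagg
Bst2, chr8:71537567-71537622, minus strand: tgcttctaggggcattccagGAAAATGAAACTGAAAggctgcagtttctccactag
Stat2, chr10:128270256-128270305, plus strand: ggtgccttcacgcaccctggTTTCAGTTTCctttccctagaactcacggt
Cxcl10, chr5:92349073-92349122, minus strand: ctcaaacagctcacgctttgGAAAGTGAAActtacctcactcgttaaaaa
The stretches of Ifit3 and Ifit3b are the same letter for letter. In Isg15, Oas1a, and Bst2 successive matches share a GAAA unit and so form longer runs. Trim30a and Rsad2 also held a match, and the windows of Ifit2, Ifi44, Cmpk2, Cxcl9, and Xaf1, among others, held none, which says only that these letters are absent from these windows. The median log2 fold change was -0.22 over the 11 genes with a match before the start and -0.20 over the 14 without one. Every Sora-treated tumor lay below every control tumor in 6 of the 11 and in 6 of the 14, against 11.6% of all genes tested.

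Expression was lower in Sora-treated tumors in 30 of the 32 genes, by a modest amount: the median log2 fold change was -0.24, against -0.00037 over the 16513 genes tested, of which 50.1% were below 0. In 13 genes every Sora-treated tumor lay below every control tumor, against 11.6% of all genes, and no gene lay the other way, against 10.6%. By edgeR's quasi-likelihood test, Ifit2 and Parp14 fell with an adjusted p under 0.05, and no gene rose. The background was 1.34% of all genes for a fall and 1.94% for a rise. None of the 32 passed edgeR's test with a change of more than 2-fold, against 0.751% of all genes. At an unadjusted p under 0.05, 13 genes were lower, against 8.69% of all genes, and 0 were higher, against 8.53%.

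Which genes passed depended on the tool and the tumors. DESeq2 called 5 genes lower (Ifit2, Parp14, Cxcl10, Ifi44, and Ifih1), against 3.72% of all genes. In edgeR's test, leaving out any tumor but Sora-treated tumor 3 ended both calls, with adjusted p from 0.061 to 0.14 for Ifit2 and from 0.070 to 0.16 for Parp14. The counts of Sora-treated tumor 4 were recovered from its FPKM, and without it, edgeR called none of the genes, against 0.00613% of all genes lower, whereas DESeq2 on those deposited counts called 4 (Ifit2, Parp14, Cxcl9, and Cxcl10), against 1.42%. Without Sora-treated tumor 3, edgeR called 7 (Stat2, Ifih1, Ifit1, Ifit2, Rtp4, Parp14, and Cxcl10), against 3.5% of all genes.

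**Figure D1:**
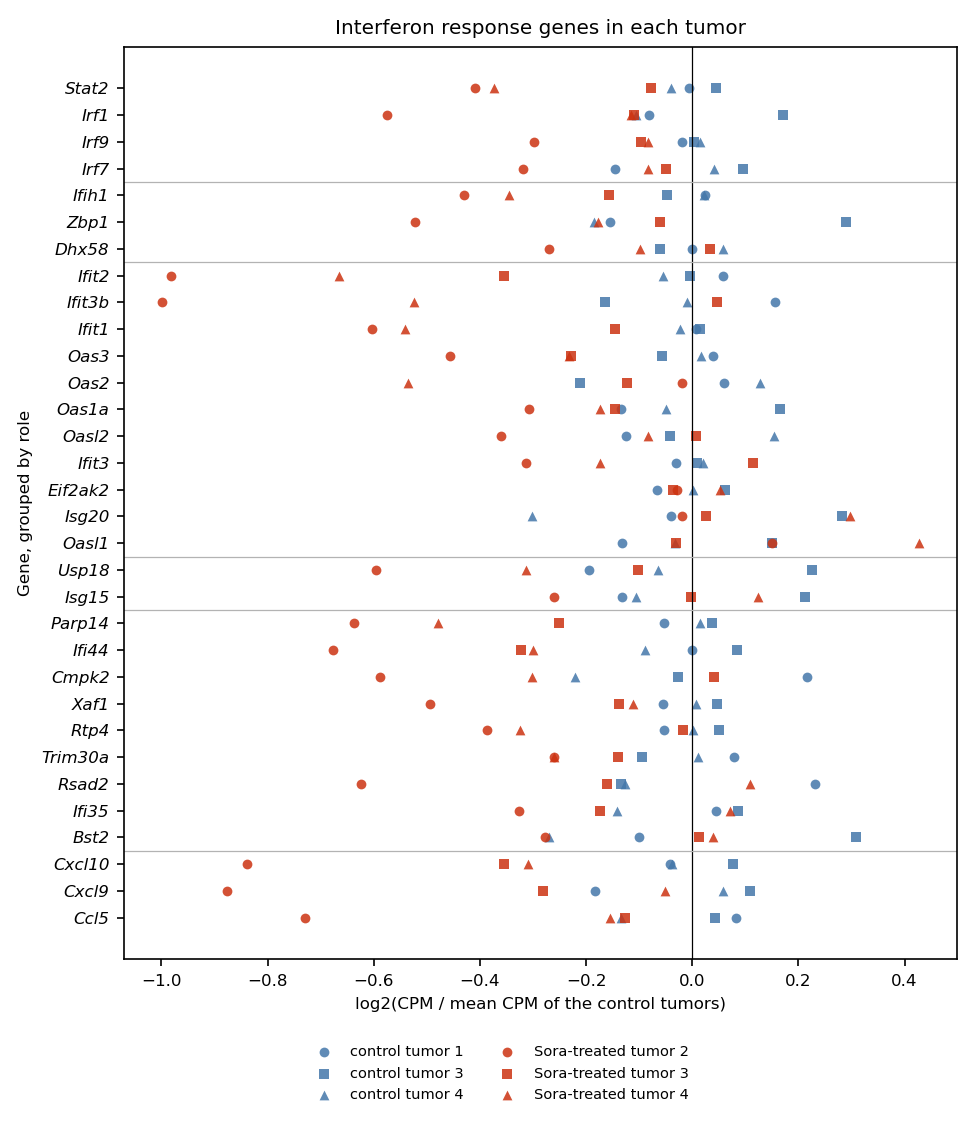
Level of each of the 32 genes in each tumor, as log2 of its CPM over the mean CPM of the control tumors (x axis), with genes on the y axis grouped by role and ordered by fold change. Control tumors are blue and Sora-treated tumors red; Sora-treated tumor 2 (red circles) is the lowest of the 6 in 27 genes.

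The Sora-treated tumors did not contribute equally. Tumor 2 of that group was the lowest of the 6 tumors in 27 of the 32 genes, against 17.3% of all genes tested. Relative to the control mean, the median gene of the list was at a log2 ratio of -0.42 in Sora-treated tumor 2, -0.11 in tumor 3, and -0.17 in tumor 4. The control tumors were at -0.035, 0.045, and -0.028, and the median of all genes was within 0.01 of 0 in each of the 6 tumors. Without Sora-treated tumor 2 the median log2 fold change of the list was -0.13, with 27 of the 32 genes below 0. Groups then separated in 13 genes, against 14.9% of all genes in those 5 tumors. That is the same count as with all 6 tumors, where the share of all genes was 11.6%. Leaving out a tumor cannot undo a separation, so the count could not have fallen. The coefficient of variation of the median gene was 8.03% among control tumors and 14.1% among Sora-treated tumors, and it was larger among the Sora-treated tumors in 25 of the 32 genes. Over all genes it was 9.75% and 9.72%, and 48.1% of genes varied more among Sora-treated tumors.

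Levels between genes are compared per length, as FPKM. The most abundant gene of the list was Bst2, which encodes tetherin, a membrane protein that holds budding virions on the cell. Bst2 was at 224, 283, and 196 FPKM in control tumors 1, 3, and 4 and at 194, 239, and 234 FPKM in Sora-treated tumors 2, 3, and 4. The groups overlapped, and the difference was -0.07 on the log2 scale with a standard error of 0.14. Cxcl9, Irf1, Cxcl10, and Ccl5 followed at 148, 127, 121, and 118 FPKM in control tumors. The least abundant was Ifit3b, at 2.29, 1.75, and 2.005 FPKM in control tumors and at 1.01, 2.09, and 1.35 FPKM in Sora-treated tumors. Its groups overlapped, and its lowest count, in Sora-treated tumor 2, was 70 reads. Differences between groups are given below in CPM, counts scaled to the TMM-adjusted library size of each tumor.

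The transcription factors of the list were Stat2, Irf9, Irf1, and Irf7. Stat2 and Irf9 encode parts of ISGF3. Stat2 was at 116, 119.8, and 113 CPM in control tumors 1, 3, and 4 and at 87.5, 110.2, and 89.7 CPM in Sora-treated tumors 2, 3, and 4. The groups did not overlap, and the difference (log2 fold change -0.28, standard error 0.09) had an adjusted p of 0.14 by edgeR. Irf9 was at 45.1, 45.8, and 46.2 CPM in control and at 37.2, 42.8, and 43.1 CPM in Sora-treated tumors. The control tumors lay close together and above all Sora-treated tumors, but the log2 fold change was small, at -0.16 (standard error 0.08, adjusted p = 0.37, edgeR). Irf1, which interferon-gamma induces strongly, was at 402, 478, and 395 CPM in control and at 285, 394, and 392 CPM in Sora-treated tumors. Its groups were apart by less than 1 CPM, and they overlapped when CPM were taken from total counts without TMM. Irf7, the factor that amplifies interferon-alpha production, overlapped between the groups (log2 fold change -0.15). Without Sora-treated tumor 2 the log2 fold changes of Irf9, Irf1, and Irf7 were -0.09, -0.11, and -0.07.

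Of the sensors, Ifih1 encodes MDA5, which binds long double-stranded RNA. Ifih1 was at 48.4, 46.1, and 48.3 CPM in control tumors and at 35.3, 42.7, and 37.5 CPM in Sora-treated tumors. The groups did not overlap, and the difference of -0.31 on the log2 scale (standard error 0.09) had an adjusted p of 0.083 by edgeR and 0.043 by DESeq2. Rigi, which encodes RIG-I, the sensor of 5′-triphosphate RNA, was at 109, 107, and 121 CPM in control and at 90.8, 100.6, and 100.1 CPM in Sora-treated tumors. Its groups did not overlap either (log2 fold change -0.21, adjusted p = 0.20, edgeR). Dhx58, which encodes LGP2, a regulator of both sensors, and Zbp1, a sensor of Z-form nucleic acid that can start necroptosis, overlapped between the groups, with log2 fold changes of -0.11 and -0.24. Without Sora-treated tumor 2, Dhx58 was at -0.03 and Zbp1 at -0.12.

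The effectors that bind or degrade RNA include the IFIT proteins, which bind viral RNA and block its translation, and their genes lie side by side on chromosome 19. Ifit2 had the largest fold change of the list. It was at 49.6, 47.5, and 45.9 CPM in control tumors 1, 3, and 4 and at 24.1, 37.3, and 30.1 CPM in Sora-treated tumors 2, 3, and 4. The groups did not overlap, with an SD of 1.89 CPM among control and 6.57 CPM among Sora-treated tumors. Ifit2 fell by 36.0% (log2 fold change -0.64, standard error 0.13, adjusted p = 0.029, edgeR). Ifit1 was at 14.3, 14.4, and 14.0 CPM in control and at 9.37, 12.9, and 9.78 CPM in Sora-treated tumors. Its groups did not overlap (log2 fold change -0.41, standard error 0.14, adjusted p = 0.14, edgeR). Ifit3 was at 13.7, 14.1, and 14.2 CPM in control and at 11.3, 15.2, and 12.4 CPM in Sora-treated tumors. Sora-treated tumor 3 was the highest of the 6 for Ifit3, and the log2 fold change was -0.11. Ifit3b gave -0.43 with a standard error of 0.27. Without Sora-treated tumor 2, Ifit3 was at -0.02 and Ifit3b at -0.21. Ifit3 and Ifit3b are close copies, and reads can be split between them in a way the files do not show.

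The OAS enzymes make 2′-5′-linked oligoadenylate, which activates RNase L. Oas3 was at 30.7, 28.7, and 30.2 CPM in control tumors and at 21.8, 25.5, and 25.4 CPM in Sora-treated tumors. The groups did not overlap (log2 fold change -0.30, standard error 0.09, adjusted p = 0.10, edgeR). Oas1a was at 38.4, 47.3, and 40.8 CPM in control and at 34.1, 38.1, and 37.4 CPM in Sora-treated tumors. Its groups separated by less than 1 CPM (-0.21 on the log2 scale, adjusted p = 0.29 by edgeR), and the other Oas1 genes of the mouse are similar in sequence. Oas2 and Oasl2 overlapped (log2 fold changes -0.21 and -0.14), and Oas2 was at -0.07 without Sora-treated tumor 4 and Oasl2 at -0.04 without tumor 2. Oasl1, a relative that in mice limits translation of Irf7, went the other way, at 34.9 ± 3.52 CPM in control and 39.97 ± 6.48 CPM in Sora-treated tumors (SD, n = 3), within the spread of the tumors. Isg20, an RNA exonuclease, was the other gene above 0, with a log2 fold change of 0.11, which was -0.02 without control tumor 4. Eif2ak2, which encodes PKR, the kinase that stops translation on double-stranded RNA, was at 155 ± 6.88 CPM in control and 154 ± 5.30 CPM in Sora-treated tumors (SD, n = 3; log2 fold change -0.0044, standard error 0.07), so a difference was not detectable.

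ISG15 is a ubiquitin-like protein, and USP18 removes it from its targets and also shuts off IFNAR signaling. Isg15 was at 19.3, 24.5, and 19.7 CPM in control tumors and at 17.6, 21.1, and 23.0 CPM in Sora-treated tumors. The groups overlapped, with a difference of -0.04 on the log2 scale (adjusted p = 0.92, edgeR; standard error 0.13). Usp18 was at 52.6, 70.3, and 57.5 CPM in control and at 39.8, 56.0, and 48.4 CPM in Sora-treated tumors. Sora-treated tumor 3 lay above control tumor 1, and the difference of -0.32 on the log2 scale (standard error 0.13) had an adjusted p of 0.23 by edgeR.

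**Figure D2:**
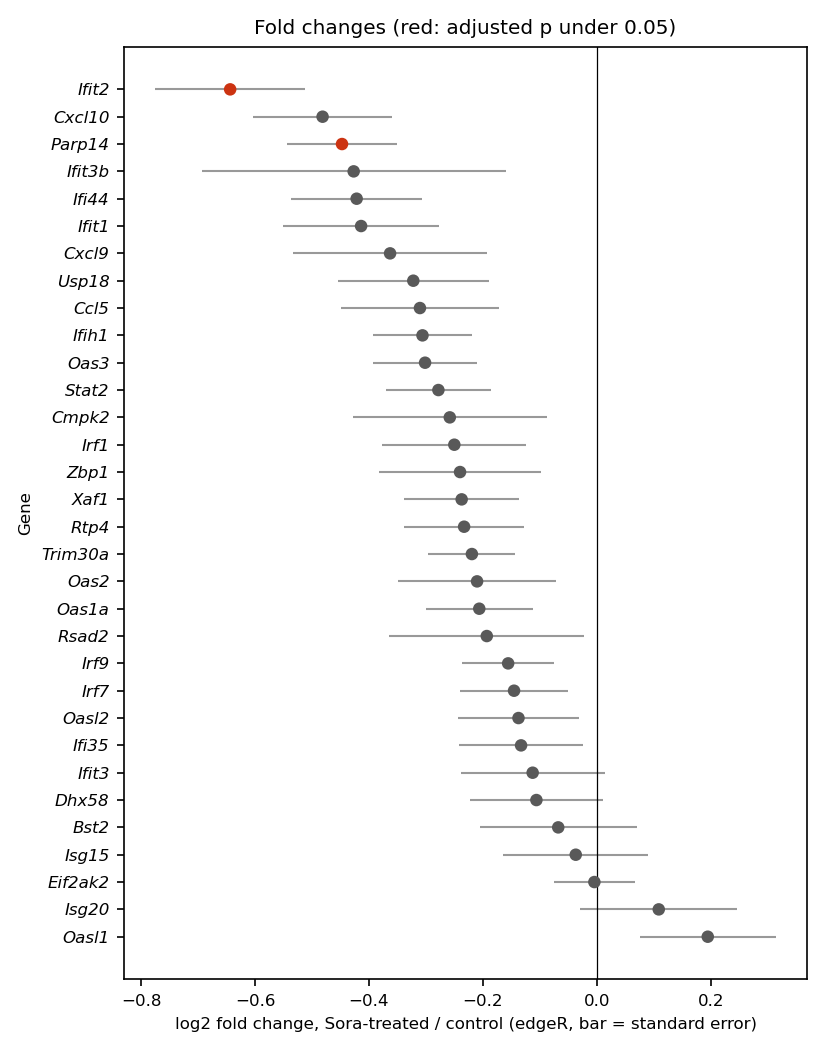
Log2 fold change of Sora-treated over control tumors (x axis, edgeR) with its standard error as a bar for the 32 genes (y axis), 3 tumors a group. Ifit2 (-0.64) and Parp14 (-0.45), in red, have an adjusted p under 0.05; Oasl1 (0.19) and Isg20 (0.11) are the genes above 0.

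All 9 of the other antiviral effectors were below 0. Parp14 encodes a macrodomain ADP-ribosyltransferase. It was at 223, 237, and 233 CPM in control tumors 1, 3, and 4 and at 148, 194, and 166 CPM in Sora-treated tumors 2, 3, and 4. No Sora-treated tumor reached a control tumor, and Parp14 fell by 26.7% (log2 fold change -0.45, standard error 0.10) with an adjusted p of 0.034 by edgeR. Ifi44 was at 22.6, 24.0, and 21.3 CPM in control and at 14.2, 18.1, and 18.4 CPM in Sora-treated tumors. Its groups did not overlap, and the adjusted p of its log2 fold change of -0.42 (standard error 0.12) was 0.075 by edgeR and 0.028 by DESeq2. Xaf1, which promotes apoptosis, was at 50.3, 53.9, and 52.5 CPM in control and at 37.1, 47.5, and 48.3 CPM in Sora-treated tumors. Trim30a, a TRIM protein that dampens Toll-like receptor signaling, was at 83.6, 74.1, and 79.8 CPM in control and at 66.1, 71.8, and 66.1 CPM in Sora-treated tumors. Both separated the groups, with log2 fold changes of -0.24 and -0.22 and adjusted p of 0.26 and 0.16 by edgeR, and Xaf1 was at -0.12 without Sora-treated tumor 2. Trim30a overlapped when CPM were taken from total counts. Rsad2, which encodes viperin, and its neighbor Cmpk2, which makes the nucleotide that viperin converts, overlapped between the groups, with log2 fold changes of -0.19 and -0.26. Without Sora-treated tumor 2, Rsad2 was at -0.02 and Cmpk2 at -0.12. Rsad2 was at 0.11 with tumors of the same number as blocks. Rtp4 (-0.23) and Ifi35 (-0.13) overlapped as well.

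The chemokines CXCL9 and CXCL10 draw CXCR3-bearing T and NK cells, and CCL5 draws T cells and monocytes. Cxcl10 was at 129, 139.6, and 129 CPM in control tumors 1, 3, and 4 and at 74.0, 104, and 107 CPM in Sora-treated tumors 2, 3, and 4. The groups did not overlap, and the difference of -0.48 on the log2 scale (standard error 0.12) had an adjusted p of 0.058 by edgeR and 0.0022 by DESeq2. Cxcl9, its neighbor on chromosome 5, was at 377, 461, and 445 CPM in control and at 233, 352, and 413 CPM in Sora-treated tumors. Sora-treated tumor 4 lay above control tumor 1, and the log2 fold change of -0.36 (standard error 0.17) became -0.16 without Sora-treated tumor 2. Ccl5 was at 66.0, 64.2, and 56.8 CPM in control and at 37.6, 57.1, and 56.0 CPM in Sora-treated tumors. Sora-treated tumor 2 stood well below the others, which overlapped, and the difference of -0.31 on the log2 scale (standard error 0.14) had an adjusted p of 0.28 by edgeR. Without Sora-treated tumor 2 the difference was -0.14. CCL5 is made largely by T and NK cells.

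**Figure D3:**
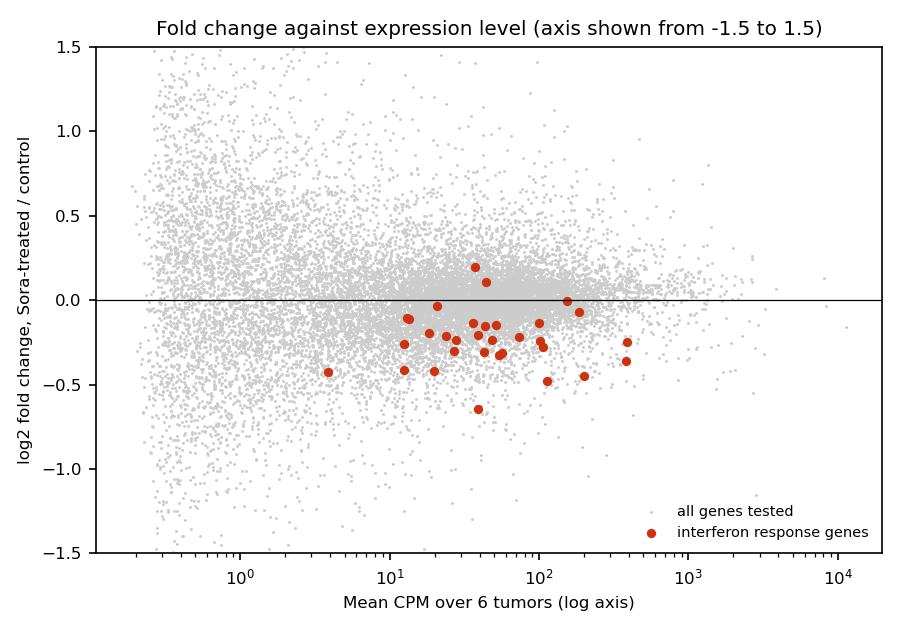
Log2 fold change of Sora-treated over control tumors (y axis) against the mean CPM over 6 tumors (x axis, log scale) for the genes tested (gray) and the 32 interferon response genes (red). All red points but Oasl1 (0.19) and Isg20 (0.11) lie below 0; 140 other genes lie outside the axis limits of -1.5 and 1.5.

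The rest of the pathway was described with a list of 141 symbols of ligands, receptors, kinases and STATs, sensors and adaptors that induce interferon, inhibitors, and other interferon-stimulated genes. The table held 122 of them and 115 were tested. By edgeR 8 fell, against 1.34% of all genes, and 2 rose, against 1.94%, so the share that rose was near the background. Of the 115, 88 were below 0, against 50.1% of all genes, with a median of -0.16. DESeq2 called 21 lower, against 3.72% of all genes, and 4 higher, against 4.0%. All 10 genes called by edgeR belonged to the 72 tested interferon-stimulated genes, whose median was -0.25, with 61 below 0. The 8 that fell were Ifi30, a lysosomal thiol reductase of antigen processing (log2 fold change -0.54), Ifi203, a HIN-200 protein (-0.44), Dtx3l, an E3 ubiquitin ligase (-0.48), Herc6, an E3 ligase for ISG15 (-0.45), Parp11 (-0.42), Rnf213 (-0.34), Ms4a6b (-0.33), and Ifit1bl1 (-1.03), with adjusted p from 0.019 to 0.050 in edgeR's test. Ifit1bl1 was at 5.55, 4.02, and 4.25 CPM in control and at 1.69, 2.68, and 2.35 CPM in Sora-treated tumors. It was the lone gene called at more than 2-fold in either list, and RefSeq's Ifit1bl1 overlaps its Ifit neighbors. Slfn4, a Schlafen gene of myeloid cells, rose from 16.7, 13.2, and 20.9 CPM to 39.2, 25.9, and 31.5 CPM (0.93 on the log2 scale, adjusted p = 0.022, edgeR). Ifitm1, which blocks viral entry, rose too (0.63, adjusted p = 0.042, edgeR). Without Sora-treated tumor 4 none of the 10 passed in edgeR's test, which then called 1 gene lower and 4 higher in all. DESeq2 without that tumor called 8 pathway genes lower and 2 higher, against 220 lower and 271 higher of the 15474 genes with an adjusted p.

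No gene upstream of the response passed edgeR's test. The receptor genes Ifnar1 and Ifnar2 overlapped between the groups, with log2 fold changes of -0.05 and -0.08 (standard errors 0.07 and 0.08). Jak1 was at 219, 201, and 209.7 CPM in control and 188, 188, and 187 CPM in Sora-treated tumors, without overlap (log2 fold change -0.16, adjusted p = 0.26, edgeR), and Tyk2 was at 0.02. Mavs, Sting1, and Irf3, which carry the signal from RNA and DNA sensors to the interferon genes, were at 0.03, 0.02, and 0.06. Cgas, Tlr3, and Tlr7 overlapped at -0.34, -0.10, and -0.30. Socs1, an inhibitor of JAK kinases that interferon induces, overlapped at -0.30. Ifnb1, which encodes interferon-beta, had 3 reads over all 6 tumors and was not tested. Ifng, the lone interferon gene that was tested, was at 7.10, 6.91, and 7.37 CPM in control and 4.86, 8.67, and 6.25 CPM in Sora-treated tumors (log2 fold change -0.11, adjusted p = 0.83, edgeR). By class, groups separated in 4 of 6 tested receptor genes (3 lower, 1 higher), 3 of 5 kinases and STATs (2 lower, 1 higher), 3 of 18 sensors and adaptors (2 lower, 1 higher), and 6 of 13 inhibitors (4 lower, 2 higher), against 11.6% of all genes lower and 10.6% higher. DESeq2 called 3 of these genes, against 3.72% of all genes lower and 4.0% higher, and they are named here after their values were seen: Jak2 (0.29 on the log2 scale) and Socs3 (0.45) were higher and Samhd1 (-0.38) was lower, with adjusted p of 0.056, 0.080, and 0.053 by edgeR. Missing the threshold does not show that the groups were alike.

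Several lists of leukocyte markers were lower in Sora-treated tumors, as the interferon genes were, whereas neutrophil markers were higher. In bulk RNA fewer cells of a type cannot be told apart from less RNA per cell. All 5 general leukocyte markers were below 0 (median log2 fold change -0.28), and their summed level was 936 to 1069 CPM in control and 830.5 to 897 CPM in Sora-treated tumors. Ptprc, which encodes CD45, had a log2 fold change of -0.35 (adjusted p = 0.11, edgeR). All 11 tested T cell markers were below 0 (231 to 271 CPM against 190.1 to 212 CPM in sum), and so were all 11 macrophage and monocyte markers (1887 to 2272 CPM against 1572 to 1859.5 CPM). The macrophage and monocyte list shares genes with the pathway list. The T cell and general leukocyte sums were lowest in Sora-treated tumor 2, as most interferon genes were, but the general leukocyte sum was nearly as low in tumor 4 (835 CPM). The macrophage and monocyte sum was lowest in tumor 4 (1572 CPM, against 1643 CPM in tumor 2). Both CD8 T cell markers and all 5 tested B cell markers were below 0, and their sums did not overlap. The plasmacytoid dendritic cell list, which shares Bst2 and Irf7 with the interferon genes, overlapped in its sum, with 5 of 7 tested markers below 0. The sums of the NK cell list (6 of 8 below 0), the conventional dendritic cell list (4 of 7), and the endothelial list (4 of 7) overlapped too. The fibroblast sum, most of it from collagen genes, was 7595 to 7865 CPM in control and 5376 to 6767 CPM in Sora-treated tumors, with 6 of 7 markers below 0 and none called by edgeR. Dcn (0.03) and Pdgfra (-0.03), named after their values were seen, were near 0 on the log2 scale. The neutrophil sum was 69.9 to 79.0 CPM in control and 157, 102, and 110 CPM in Sora-treated tumors 2, 3, and 4. Of its 7 listed markers 6 had enough reads to be tested, and all 6 were above 0. Among these lists Cd6, Cd8b1, and Mertk fell and S100a9 rose at an adjusted p under 0.05 by edgeR, with log2 fold changes of -0.58, -0.56, -0.45, and 1.21. Over all genes tested, 1.34% fell and 1.94% rose at that threshold. None of these 4 calls held without Sora-treated tumor 2 or without Sora-treated tumor 4, and S100a9 was at 0.79 without tumor 2. No marker listed in the table was at 0 in all tumors. The part of these cell types in the lower interferon genes was not tested.

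**Figure D4:**
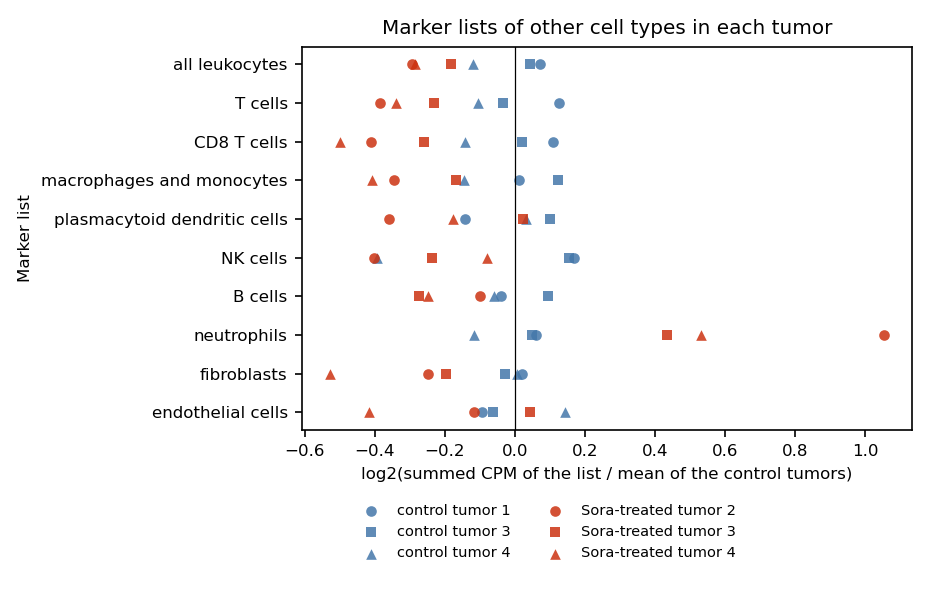
Summed CPM of marker lists of other cell types in each tumor, as log2 over the mean of the control tumors (x axis), with lists on the y axis; control tumors are blue and Sora-treated tumors red. The T cell, macrophage and monocyte, and general leukocyte sums of the Sora-treated tumors lie below those of all control tumors, and their neutrophil sums lie above.

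The hepatoma origin of the tissue was checked with 10 markers, of which 9 were tested. Alb, Afp, and others were present in all tumors, and the summed level was 6944 to 9028 CPM in control and 7491 to 8187 CPM in Sora-treated tumors. Alb and Ttr fell and Apoa1 and Hnf4a rose by edgeR (log2 fold changes -0.55, -2.15, 1.03, and 0.80), against 1.34% of all genes for a fall and 1.94% for a rise. Without Sora-treated tumor 4 the calls of Alb, Apoa1 (then 0.65), and Hnf4a were lost, and without tumor 2 those of Alb and Apoa1. Skin markers (7 of 7 above 0) and skeletal muscle markers (6 of 6 above 0) overlapped in their sums, and the skin sum was 336 to 1093 CPM in control and 697 to 985 CPM in Sora-treated tumors. Total counts ranged from 31073830 to 36205814 reads over the 6 tumors.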

How the data were processed

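The deposited counts are whole numbers of reads per gene for 5 tumors, and the deposited FPKM cover all 6. Submitters' processing notes name fastp, HISAT2, HTSeq, R 3.2.0, DESeq2, and GRCm39, whereas the paper names Bowtie2 and GRCm38, so the build stays unsettled. The annotation and strand setting are not given in the sources used here. Promoter coordinates are RefSeq's, on GRCm38.p6.

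In the 5 tumors with counts, each FPKM the authors gave equals the count divided by gene length and total count. Counts of Sora-treated tumor 4 were recovered from its FPKM: 100% of values lay within 0.001 of a whole number, and 342 genes of unknown length (512 reads) were left at 0. Applied to the other tumors, this returned every count it reached.

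A gene was tested when 3 or more tumors had 10 or more of its counts, by edgeR 4.0.16 (TMM, glmQLFit, glmQLFTest) in R 4.3.3, with Benjamini-Hochberg adjustment over the 16513 genes. The standard error is the log2 fold change over the square root of F. Alternatives used DESeq2 1.42.0, limma 3.58.1, other scalings and filters, FPKM, a replicate block, and each tumor left out. Every listed gene could be named; pathway and marker genes were named if called or preset. Members and lists were chosen with earlier results of these data known. Tumors of a group differed by more than counting noise, so none was a repeat deposit. Some genes of the pathway list are not reported here.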

Additional observations from a re-analysis of the deposited data

How the results depend on the processing

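The median log2 fold change of the 32 genes stayed below 0 under every alternative run, from -0.31 without Sora-treated tumor 3 to -0.13 without Sora-treated tumor 2, and 26 genes were below 0 under all of them. The count of genes called lower, 2 in the main test, was 5 with DESeq2 or with no filter, 4 with DESeq2 without Sora-treated tumor 4 (chosen after seeing the data), 13 at an unadjusted p, and 0 with each of the FPKM fits (limma; 12, 10, and 11 lower at an unadjusted p under 0.05), which called 62, 17, and 0 of all genes lower; with 1 tumor left out it was 0 to 7. Pathway genes called lower, 8 in the main test, were 21 with DESeq2 or no filter, 43 at an unadjusted p, 1 with log2(FPKM + 1) after a filter, 0 with the other FPKM fits, and 0 to 27 with 1 tumor left out. Of all genes 1.34% were called lower in the main test, 3.72% with DESeq2, and 8.69% at an unadjusted p. In all, 577 genes were called lower with no filter and 1 to 571 with 1 tumor left out. Pathway genes called higher, 2 in the main test (against 1.94% of all genes), were 4 with DESeq2 (against 4.0%) or no filter and 6 at an unadjusted p (against 8.53%). They were 0 with the FPKM fits and 0 to 4 with 1 tumor left out, when 4 to 574 genes in all were called higher. Genes whose groups did not overlap, 13 in CPM, were 11 with total counts or FPKM (chosen after seeing the data) and 13 to 20 with 1 tumor left out. Leaving out a tumor can add but not remove such genes, and the share of all genes with the Sora-treated tumors lower was then 14.8% to 20.3%, against 11.6%. Without control tumor 3, 2 genes separated with the Sora-treated tumors higher. The share of all genes in that direction was 10.6% with all 6 tumors and was not computed without control tumor 3.

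Both groups have tumors numbered 3 and 4, but the labels do not say that a number is shared, and deviations from the group means were not alike (correlations -0.033 and -0.074). With the replicate block, 0 of the 32 genes (4 at an unadjusted p under 0.05), 0 pathway genes lower, and 1 higher were called, out of 45 lower and 80 higher over all genes, and the median was -0.15. Directions turned with the block for Isg15 (0.0070), Bst2 (0.0069), and Rsad2 (0.11, against -0.19). With 1 tumor left out, Eif2ak2 went from -0.036 to 0.028 (above 0 without control tumor 3, Sora-treated tumor 2 (0.0090), or Sora-treated tumor 3 (0.0096)), Isg15 from -0.12 to 0.082 and Bst2 from -0.19 to 0.12 (above 0 without control tumor 3 or Sora-treated tumor 2, where they were 0.063 and 0.027), and Isg20 from -0.023 (without control tumor 4) to 0.27. The cause was not tested.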
